A study of Mus musculus with 32 samples.

Results

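The 40 genes described here are genes of the hepatocyte, the main cell of the liver. Their transcripts were found in RNA sequencing libraries of sorted CD4 T cells. They are read here as carried-over RNA, except for Ass1, which was as abundant in spleen as in liver libraries. The genes were given as a list and are 40 of the 35968 genes in the tables. They were chosen by what hepatocytes are known to make and with earlier values of these libraries known, in which Mup genes were among those with the largest differences between CCl4 and control libraries of liver. The list holds 5 carriers (Alb, Ttr, Rbp4, Gc, Fabp1), 6 apolipoproteins (Apoa1, Apoa2, Apoc1, Apoc3, Apob, Apoh) and 8 protease inhibitors and related plasma proteins (Serpina1a to Serpina1d, Serpina3k, Pzp, Ambp, Ahsg). It also holds 4 genes of fibrinogen and vitronectin (Fga, Fgb, Fgg, Vtn), 5 acute phase proteins (Saa1, Saa2, Orm1, Hp, Hpx), 5 enzymes (Cyp2e1, Cyp3a11, Cps1, Ass1, Hpd) and 7 major urinary protein genes (Mup1, Mup3, Mup7, Mup9, Mup19, Mup20, Mup22). All 40 passed the filter on low counts. Whether the sorted cells themselves make some of these transcripts was not tested.

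The series compared T cells of liver and spleen from mice given CCl4 or left as controls. All mice were male Foxp3GFP C57BL/6 animals, in which a green fluorescent reporter marks cells that express the transcription factor Foxp3. Regulatory T cells (Treg) were sorted as TCRb+ CD4+ Foxp3+ cells and conventional T cells (Tconv) as TCRb+ CD4+ Foxp3- cells. The 8 groups were liver Treg CCl4, liver Treg control, liver Tconv CCl4, liver Tconv control, spleen Treg CCl4, spleen Treg control, spleen Tconv CCl4 and spleen Tconv control, with 5 libraries in each CCl4 group and 3 in each control group, 32 in all. The labels give no CCl4 dose, duration or age, and a diet named in their protocol belongs to none of these samples. No label ties a library to a mouse, so p-values measure only the spread between these samples.

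Hepatocytes make most of the proteins of blood plasma, among them albumin, apolipoproteins, clotting factors and protease inhibitors, and their transcripts are among the most abundant in the liver. CCl4 is a liver poison: cytochrome P450 enzymes of the hepatocytes around the central vein, Cyp2e1 above all, turn it into a reactive radical that kills those cells, and repeated doses cause scarring. Major urinary proteins are small pheromone carriers that male mouse hepatocytes secrete in large amounts under the control of growth hormone and that leave the body in the urine. In bulk samples such as these, fewer cells of a type and less RNA per cell cannot be told apart.

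Libraries held 24513124 to 75292019 estimated counts. The 4 T cell marker genes summed to between 2499 and 4475 CPM (counts scaled to a common library size with TMM factors) in all 32 libraries, and the Treg markers Foxp3 and Il2ra to 1246 to 1816 CPM in Treg and 6.88 to 48.2 CPM in Tconv libraries. Genes of pancreatic acinar cells reached 1862 CPM in liver Treg control library 1 and 84.8 CPM in the highest liver Tconv control library. Liver Treg CCl4 library 3 stood apart from the other 4 of its group in its hepatocyte transcripts, and values without it are given beside the comparisons of liver Treg that it moves most.

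The Mup genes are close copies of each other on chromosome 4, and the 7 of the set lie between 60066469 and 62087342 (GRCm38.p6). A stretch of 60 bases that aligns with bases 133 to 192 of the Mup1 coding sequence shows how alike they are. It was read from the GENCODE M21 transcripts, and capitals mark bases unlike Mup1.
Mup1: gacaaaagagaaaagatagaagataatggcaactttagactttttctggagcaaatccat
Mup3: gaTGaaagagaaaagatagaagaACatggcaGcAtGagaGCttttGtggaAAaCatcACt
Mup7: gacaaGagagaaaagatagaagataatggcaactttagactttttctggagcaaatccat
Mup9: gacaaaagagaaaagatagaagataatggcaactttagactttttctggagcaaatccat
Mup19: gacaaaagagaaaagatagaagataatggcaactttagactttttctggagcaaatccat
Mup20: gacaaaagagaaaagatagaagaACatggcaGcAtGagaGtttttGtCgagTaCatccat
Mup22: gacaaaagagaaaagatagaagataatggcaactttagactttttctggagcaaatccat
In this stretch Mup9, Mup19 and Mup22 had no base unlike Mup1, Mup7 had 1, Mup20 had 10 and Mup3 had 15. Among Mup1, Mup7, Mup9, Mup19 and Mup22 the aligned transcripts were 98.9% to 99.8% identical, and in pairs with Mup3 or Mup20 87.9% to 91.2%. No run of 31 bases in the transcripts of Mup19 or Mup22 was absent from every other gene, against 9.98% of such runs in Mup7, 14.4% in Mup9, 29.8% in Mup1, 35.5% in Mup20 and 69.9% in Mup3. Counts of single Mup copies are therefore uncertain, and their sum is given beside them. Alb, by contrast, shared no such run with another gene. The 4 Serpina1 genes are also close copies, with 17.8% to 55.3% of runs of their own, and Saa1 and Saa2 had 53.2% and 55.5%.

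Promoters are shown for Alb, against which the other members are set below, and for a near-identical and a divergent Mup copy, Mup19 and Mup3. They run from 250 bases before the annotated start to 50 bases after it, from RefSeq on GRCm38.p6. Capitals mark GTTAAT, a core of the binding site of the hepatocyte factor HNF1, or TATANAA, a form of the TATA box, searched on both strands. Alb lies on the plus strand at chr5:90460620-90460919, Mup19 on the minus strand at chr4:61782175-61782474 and Mup3 on the minus strand at chr4:62087268-62087567.
Alb: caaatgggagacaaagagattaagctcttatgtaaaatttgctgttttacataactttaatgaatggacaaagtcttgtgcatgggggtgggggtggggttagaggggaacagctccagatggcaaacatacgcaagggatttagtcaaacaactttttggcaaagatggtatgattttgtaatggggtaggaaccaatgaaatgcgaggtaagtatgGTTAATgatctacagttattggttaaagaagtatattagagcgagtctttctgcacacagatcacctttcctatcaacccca
Mup19: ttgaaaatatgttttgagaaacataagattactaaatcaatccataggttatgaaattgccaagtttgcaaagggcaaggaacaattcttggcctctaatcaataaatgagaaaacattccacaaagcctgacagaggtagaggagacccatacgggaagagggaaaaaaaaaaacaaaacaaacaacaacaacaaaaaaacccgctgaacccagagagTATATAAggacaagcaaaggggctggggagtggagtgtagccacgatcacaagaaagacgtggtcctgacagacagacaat
Mup3: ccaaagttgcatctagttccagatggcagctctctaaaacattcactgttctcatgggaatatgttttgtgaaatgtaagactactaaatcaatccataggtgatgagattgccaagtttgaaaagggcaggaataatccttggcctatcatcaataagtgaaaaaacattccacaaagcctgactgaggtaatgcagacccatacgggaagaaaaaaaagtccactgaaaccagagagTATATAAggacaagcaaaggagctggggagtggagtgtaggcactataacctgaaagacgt
The GTTAAT motif stood in 11 of the 30 member promoters found in the table, or 36.7%, and in 7.20% of 27025 promoters. The TATANAA motif stood in 9 of the 30, or 30.0%, and in 11.8% of all promoters. The first count includes Serpina1a to Serpina1d, and the second Mup3, Mup9 and Mup19. These are copies of each other, so their matches are not independent. The capitals begin 32 bases before the start of Alb, 31 before that of Mup19 and 11 before that of Mup3. A match describes the letters of this window and says nothing of binding.

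Hepatocyte transcripts were found in liver libraries of both T cell types and were near the detection limit in spleen libraries. The sum of the 39 genes other than Ass1 was 14.3, 47.5, 458, 23.0 and 21.0 CPM in liver Treg CCl4 libraries 1 to 5, and 230, 128 and 126.5 CPM in liver Treg control libraries. It was 376, 687, 320, 354 and 219 CPM in liver Tconv CCl4 libraries, and 944, 334 and 633 CPM in liver Tconv control libraries. Across the 16 spleen libraries it lay between 1.2 and 5.62 CPM, below every liver library. As a share of all counts, the 39 genes took 0.00152% to 0.0480% of liver Treg and 0.0206% to 0.0901% of liver Tconv libraries. In liver Treg, 4 of the 5 CCl4 libraries lay below all 3 of their controls, and library 3 lay above them.

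**Figure D1:**
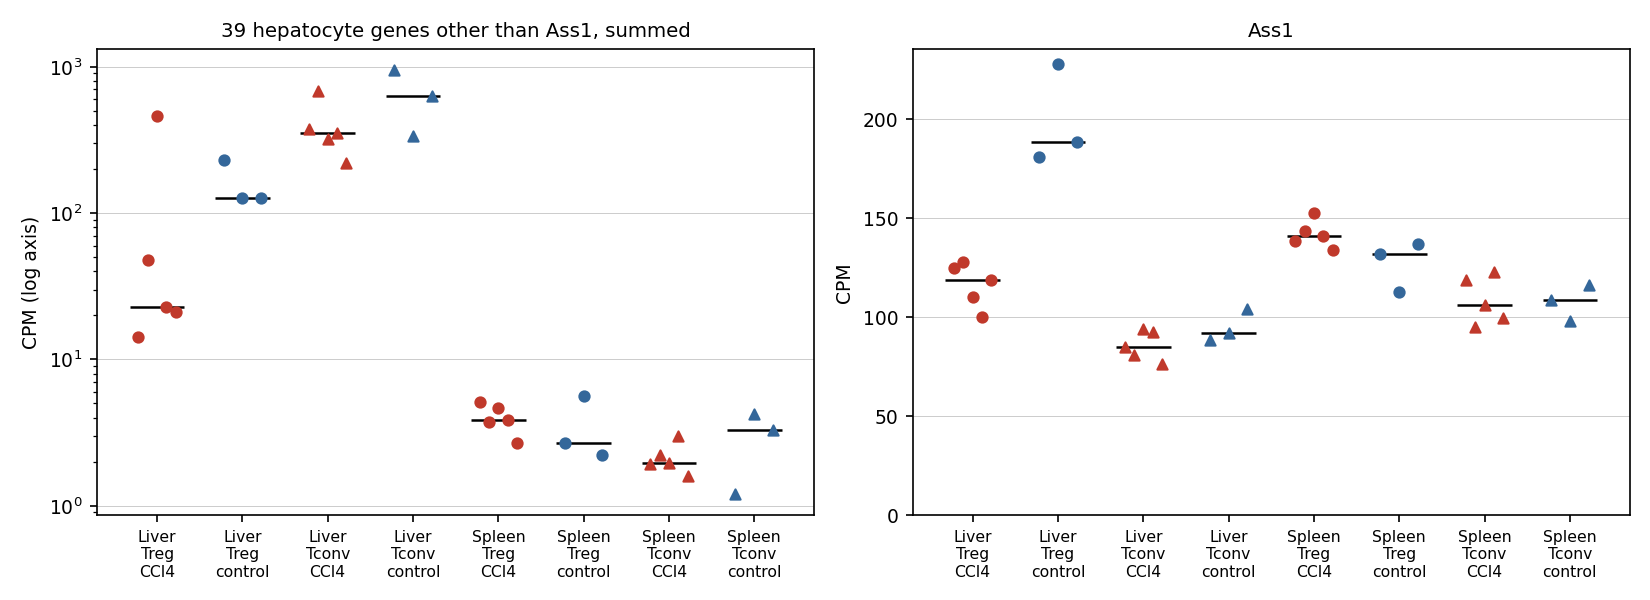
Summed CPM of the 39 hepatocyte genes other than Ass1 (left, log axis) and CPM of Ass1 (right, linear axis) in each library of the 8 groups, CCl4 in red, control in blue, Treg as circles, Tconv as triangles, with the group median as a line. All liver libraries lie at 14.3 CPM or above on the left and all spleen libraries at 5.62 CPM or below, while Ass1 lies between 76.4 and 228 CPM in every group.

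Between liver and spleen, edgeR's quasi-likelihood test called 39 of the 40 members higher in liver Treg than in spleen Treg and 39 higher in liver Tconv than in spleen Tconv, against 30.1% and 27.2% of the 17159 genes tested. These genes are hepatocyte genes by choice, so the counts describe the set. Saa2 did not pass in Treg (log2 difference 2.37 ± 1.08, SE, adjusted p = 0.0589). Among those called, the 5 of largest log2 difference in Tconv were Apob, the protein backbone of very low density lipoprotein (11.15), Cps1, which starts the urea cycle (10.88), Cyp3a11, a drug-metabolizing P450 (10.84), Serpina1d (10.47) and Ambp, the precursor of a plasma protease inhibitor (10.37). In Treg they were Ambp (9.79), Vtn, the adhesion protein vitronectin (9.35), Ahsg, fetuin-A (8.51), Fgb, the fibrinogen beta chain (8.14) and Serpina1b (8.13). Without CCl4 library 3 of liver Treg, 39 members were again called higher in Treg, and these differences were 9.44 for Ambp, 8.18 for Vtn, 6.96 for Ahsg, 6.70 for Fgb and 6.96 for Serpina1b. In spleen libraries the whole Mup sum came to between 0 and 134 estimated counts and Alb to between 0 and 17, and fitted differences against values near 0 depend on the small prior count.

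Ass1, argininosuccinate synthase of the urea cycle and of arginine synthesis in other cells, was the exception. It averaged 118 CPM in liver and 122 CPM in spleen libraries, so that spleen stood at 103% of liver, and the next member was Hp at 6.46%. In Treg the tissues differed in opposite directions in the 2 treatments. It stood at 99.97 to 128 CPM in liver Treg CCl4 and 134 to 153 CPM in spleen Treg CCl4 libraries, and at 181 to 228 CPM in liver Treg control and 113 to 137 CPM in spleen Treg control libraries, with no overlap in either. The average over treatments, 0.18 ± 0.07 for liver minus spleen (adjusted p = 0.0255), therefore describes neither. Ass1 was lower in liver Tconv than in spleen Tconv (-0.26 ± 0.07, adjusted p = 0.00197; 27.7% of all genes were called lower there). Ass1 was also the most abundant member per length, at 117.5 TPM (a share of transcripts that accounts for length) on average over the liver libraries, followed by Apoa2 (44.3 TPM), Mup22 (40.2 TPM), Mup1 (38.1 TPM), Apoa1 (37.9 TPM) and Alb (30.0 TPM). Apob was the lowest at 0.798 TPM. Since Ass1 outweighs the others in several libraries, sums are given mostly without it; with it, the log2 ratio of mean summed CPM between CCl4 and control was -0.65 in liver Treg, -0.62 in liver Tconv, 0.16 in spleen Treg and -0.0021 in spleen Tconv. Without Ass1, a choice made after seeing the data, these ratios were -0.52 in liver Treg, -0.70 in liver Tconv, 0.20 in spleen Treg and -0.45 in spleen Tconv. Library 3 decided the size of the liver Treg values. Without it the ratio was -1.32 with Ass1 and -2.61 without Ass1, and from the medians of all libraries -1.35 and -2.48.

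Among liver libraries, fewer hepatocyte transcripts were found in Treg than in Tconv. Averaged over treatments, edgeR called 30 of 40 members lower in liver Treg than in liver Tconv, against 27.1% of all genes tested, and 1 higher, Ass1, against 24.7%. The members' median log2 difference was -1.86, and that of all genes tested 0.01. The 5 largest called differences were those of Mup20 (-4.06 ± 0.96, SE, adjusted p = 0.000709), Cyp3a11 (-3.60 ± 0.61, adjusted p = 2.09e-05), Mup22 (-2.96 ± 0.52, adjusted p = 2.02e-05), Mup9 (-2.84 ± 0.52, adjusted p = 3.78e-05) and Cyp2e1 (-2.79 ± 0.65, adjusted p = 0.000624). Alb, the most abundant plasma protein, stood at -1.33 ± 0.57 (adjusted p = 0.0529). Summed without Ass1, all 3 liver Treg control libraries lay below all 3 liver Tconv control libraries, and 4 of 5 liver Treg CCl4 libraries lay below all 5 liver Tconv CCl4 libraries. DESeq2 called 18 members in place of 31. Without CCl4 library 3 of liver Treg, 36 were called lower, against 27.1% of all genes tested in that fit. The members' median was then -3.10, and Alb stood at -2.42 ± 0.43 (SE, adjusted p = 2.52e-05 by edgeR).

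The make-up of the hepatocyte transcripts differed between CCl4 and control libraries mainly in the Mup genes. Since earlier results of these contrasts were known when the list was drawn up, all values of CCl4 against control in liver are a description, and nothing is read from the number called. The Mup sum was 1.15, 2.72, 11.96, 1.90 and 2.45 CPM in liver Treg CCl4 libraries, and 69.5, 32.8 and 41.6 CPM in liver Treg control libraries. It was 15.5, 41.2, 32.2, 54.1 and 10.1 CPM in liver Tconv CCl4 libraries, and 338, 119 and 283 CPM in liver Tconv control libraries. In both populations the groups did not overlap, and CCl4 library 3 of liver Treg, whose total of hepatocyte transcripts exceeded every control, still had a Mup sum below all 3 controls. Fitted as 1 feature, the Mup sum had a log2 difference of -3.57 ± 0.64 (SE) in liver Treg and -3.01 ± 0.60 in liver Tconv. The difference between these effects was -0.57 ± 0.88. Without CCl4 library 3 the Mup sum stood at -4.56 ± 0.64 in liver Treg, and the difference at -1.55 ± 0.82.

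Alb overlapped between the groups. It stood at 2.45, 12.5, 100.5, 1.07 and 5.49 CPM in liver Treg CCl4 libraries, and at 27.6, 14.01 and 11.6 CPM in liver Treg control libraries. In liver Tconv it stood at 77.2, 123, 48.9, 50.1 and 39.4 CPM in CCl4 libraries, and at 60.6, 30.4 and 30.0 CPM in control libraries. In liver Treg library 3 was the highest of the 8, and in liver Tconv all 5 CCl4 libraries lay above 2 of the 3 controls. The log2 difference of Alb was 0.46 ± 0.81 (SE) in liver Treg, and -1.73 without CCl4 library 3; in liver Tconv it was 0.75 ± 0.81.

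**Figure D2:**
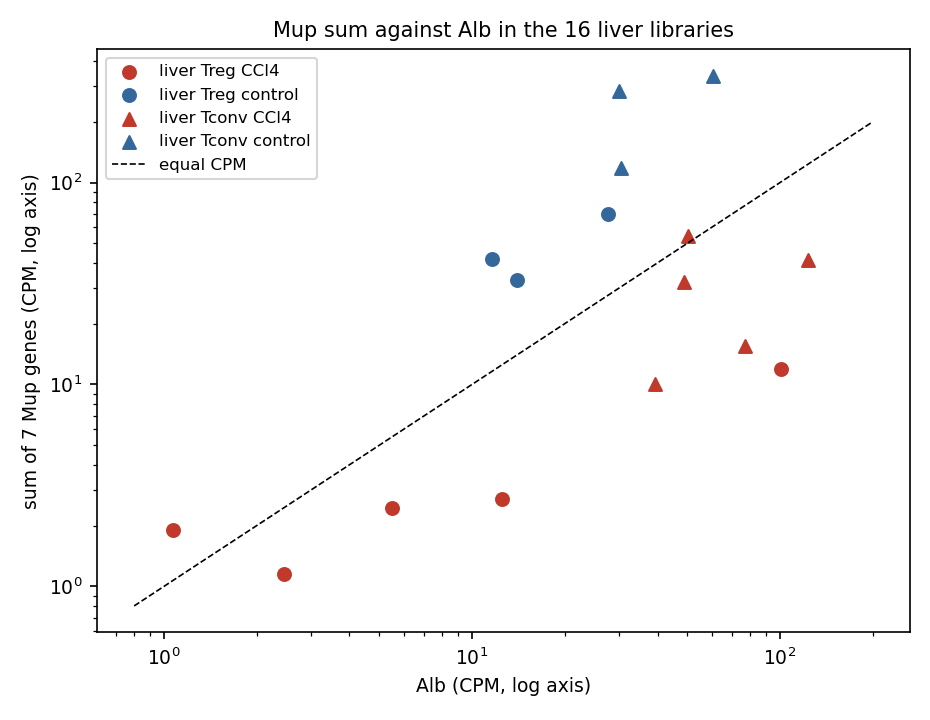
Summed CPM of the 7 Mup genes against CPM of Alb in the 16 liver libraries, both on log axes, with the line of equal CPM dashed. All 6 control libraries lie above the line, and the CCl4 libraries lie lower at a given Alb level, with 8 of the 10 below the line.

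Set against Alb of the same library, so that the total of hepatocyte RNA cancels, the Mup sum was 0.467, 0.218, 0.119, 1.77 and 0.446 times Alb in liver Treg CCl4 libraries, and 2.52, 2.34 and 3.59 times Alb in liver Treg control libraries. It was 0.201, 0.335, 0.658, 1.08 and 0.256 times Alb in liver Tconv CCl4 libraries, and 5.57, 3.90 and 9.43 times Alb in liver Tconv control libraries. The highest CCl4 value of liver Treg, in library 4, rests on 39 counts of Alb. Alb can itself change within the hepatocyte RNA, so a lower ratio to it can also come from more Alb. As a share of the 39 genes other than Ass1, the Mup genes took 2.61% to 11.7% in liver Treg CCl4 against 25.7% to 32.9% in liver Treg control libraries, and 4.12% to 15.3% in liver Tconv CCl4 against 35.5% to 44.7% in liver Tconv control libraries. Of all 40 members, the difference of the mean shares was -11.6 percentage points in liver Treg, -11.7 without its CCl4 library 3, and -26.6 in liver Tconv. These 40 include Ass1, so that share also depends on how much hepatocyte RNA stands beside Ass1. In liver Treg CCl4 library 1 the Mup genes took 0.822% of the 40 but 8.02% of the 39.

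**Figure D3:**
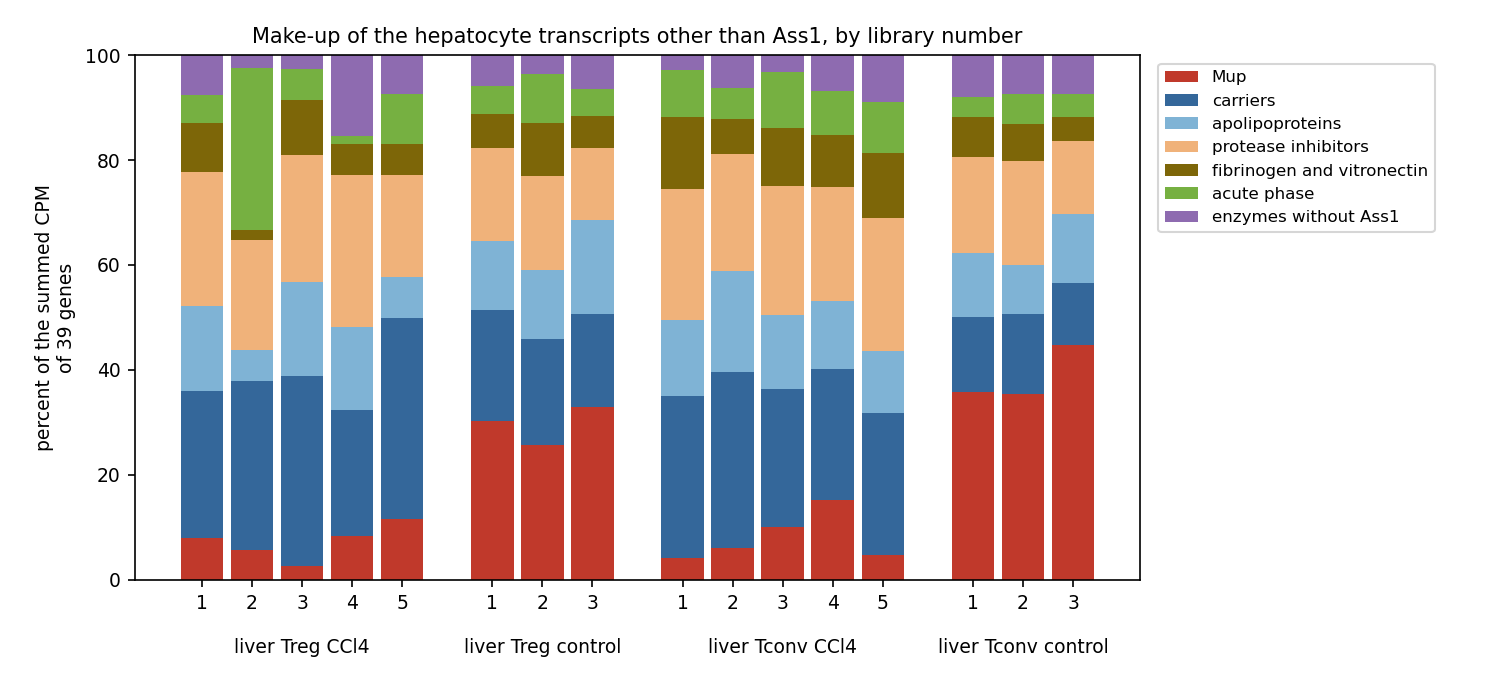
Share of each role group in the summed CPM of the 39 hepatocyte genes other than Ass1, in percent, 1 bar for each of the 16 liver libraries, with library numbers below. The Mup share (red, at the bottom) is 15.3% at most in CCl4 libraries and 25.7% or more in control libraries.

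All 7 Mup copies were lower in the mean of both liver comparisons. In liver Treg the log2 differences were -5.64 for Mup20, the darcin pheromone, -3.98 for Mup19, -3.82 for Mup7, -3.69 for Mup22, -3.64 for Mup3, -3.13 for Mup1 and -3.11 for Mup9. Without CCl4 library 3 they were -5.59 for Mup20, -4.50 for Mup19, -3.87 for Mup7, -5.01 for Mup22, -4.84 for Mup3, -4.47 for Mup1 and -4.48 for Mup9. In liver Tconv they were -5.10 for Mup19, -4.70 for Mup7, -3.21 for Mup9, -3.04 for Mup22, -2.57 for Mup3, -2.45 for Mup1 and -1.40 for Mup20. Mup1 had 0.186, 0.946, 4.93, 1.05 and 0 CPM in liver Treg CCl4 libraries, and 15.5, 14.4 and 7.75 CPM in liver Treg control libraries. Mup3 had 1.91, 1.70, 3.94, 5.93 and 2.01 CPM in liver Tconv CCl4 libraries, and 32.6, 8.62 and 14.1 CPM in liver Tconv control libraries. For both, the groups do not overlap. Mup20 was the least even copy: in liver Tconv it had 0.324, 0.527, 0.636, 12.6 and 0.281 CPM in CCl4 libraries, and 17.8, 1.04 and 4.03 CPM in control libraries, so that the groups overlapped through CCl4 library 4. Without liver Tconv control library 1 the difference of Mup20 was 0.18, against -1.40 with it.

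By edgeR's test over all genes, 9 of the 40 members were called lower in liver Treg CCl4 than in control libraries (the 7 Mup genes, Ass1 and Cyp3a11), against 7.34% of all genes tested, and none higher. In liver Tconv 4 were called lower (Mup7, Mup9, Mup19 and Mup22), against 0.181% of all genes lower and 0.326% in either direction. The members' median log2 difference was -0.81 in liver Treg and -0.39 in liver Tconv, and that of all genes tested -0.0008 and -0.01. Without CCl4 library 3, 29 members were called lower in liver Treg in place of 9, against 6.78% of all genes tested in that fit. The members' median was then -2.89, and that of all genes -0.0031. The calls differed in how many other settings they passed in. In liver Treg, Cyp3a11 was called under 8 of 16 others, Mup20 under 12 of 14, Mup1 and Mup7 under 14 of 15, and Mup3, Mup9, Mup19, Mup22 and Ass1 under every one run. In liver Tconv, Mup7 was called under 10 of 14 others, Mup19 under 9, Mup9 under 7 and Mup22 under 4. In liver Tconv the count was 0 without control library 1 or without control library 3, and 2 without CCl4 library 1, 4 or 5.

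Among carriers and apolipoproteins other than Alb, the groups overlapped more often. Fabp1, which binds fatty acids in the hepatocyte, had 0.293, 0.118, 8.10, 2.37 and 1.502 CPM in liver Treg CCl4 libraries, and 9.19, 1.71 and 3.74 CPM in liver Treg control libraries. It had 6.16, 7.31, 2.70, 4.72 and 3.17 CPM in liver Tconv CCl4 libraries, and 18.2, 3.57 and 11.8 CPM in liver Tconv control libraries. Both pairs of groups overlapped in CPM. As a ratio to Alb, Fabp1 lay between 0.0552 and 0.0943 in liver Tconv CCl4 libraries and between 0.117 and 0.395 in liver Tconv control libraries, with no overlap.

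Apoa2, a protein of high density lipoprotein, had 1.012, 0.562, 7.30, 0.991 and 0.553 CPM in liver Treg CCl4 libraries, and 7.09, 4.51 and 6.90 CPM in liver Treg control libraries. It had 3.18, 13.0, 8.30, 9.87 and 3.83 CPM in liver Tconv CCl4 libraries, and 33.9, 8.19 and 26.1 CPM in liver Tconv control libraries. In CPM the groups overlapped in both populations; as a ratio to Alb they did not in liver Tconv, with 0.0412 to 0.197 in CCl4 and 0.269 to 0.868 in control libraries. Apoa1, the main protein of high density lipoprotein, had 0.293, 0.680, 60.2, 1.82 and 0.237 CPM in liver Treg CCl4 libraries, and 12.2, 7.09 and 8.35 CPM in liver Treg control libraries. It had 35.0, 77.5, 22.8, 19.4 and 12.6 CPM in liver Tconv CCl4 libraries, and 48.0, 11.9 and 34.5 CPM in liver Tconv control libraries. Here both CPM and ratio overlapped, the ratio to Alb lying between 0.319 and 0.630 in liver Tconv CCl4 and between 0.390 and 1.15 in liver Tconv control libraries. CCl4 library 3 of liver Treg was above its controls for Apoa1 and the other 4 were below them.

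Among protease inhibitors, Serpina3k had lower ratios to Alb in CCl4 than in control libraries, with no overlap in either population, and Ahsg overlapped in both. Serpina3k, a liver serpin, had 0.293, 0.798, 22.6, 0.0275 and 0.632 CPM in liver Treg CCl4 libraries, and 7.74, 5.83 and 5.69 CPM in liver Treg control libraries. It had 15.1, 37.8, 13.9, 19.0 and 13.4 CPM in liver Tconv CCl4 libraries, and 44.4, 18.1 and 27.8 CPM in liver Tconv control libraries. The CPM overlapped in both populations. Its ratios to Alb did not: they were 0.0256 to 0.224 in liver Treg CCl4 and 0.281 to 0.491 in liver Treg control libraries, and 0.195 to 0.380 in liver Tconv CCl4 and 0.593 to 0.926 in liver Tconv control libraries. Ahsg, a plasma glycoprotein that inhibits mineral deposition, had 0.852, 0.502, 36.3, 1.40 and 0.949 CPM in liver Treg CCl4 libraries, and 4.81, 3.11 and 0.673 CPM in liver Treg control libraries. It had 24.6, 50.7, 17.8, 9.41 and 10.3 CPM in liver Tconv CCl4 libraries, and 15.8, 4.26 and 6.55 CPM in liver Tconv control libraries. Its ratios to Alb were 0.188 to 0.412 in liver Tconv CCl4 and 0.140 to 0.260 in liver Tconv control libraries. Over the summed libraries Ahsg had the highest log2 ratio of CCl4 to control of all members set against Alb, 1.02 in liver Treg and 0.60 in liver Tconv. In liver Treg, library 3 held 1193 of the 1317 Ahsg counts of the CCl4 group. Without it the value was 0.09, and 5 other members stood higher, Ass1 among them. The alpha-1-antitrypsin copies Serpina1a to Serpina1d did not overlap in liver Tconv, with Serpina1d at 0.0421 to 0.133 times Alb in CCl4 and 0.266 to 0.410 in control libraries.

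The fibrinogen chains, which form the clot, overlapped in their ratios to Alb in both populations. Fgg had 0.106, 0.207, 14.2, 0.220 and 0 CPM in liver Treg CCl4 libraries, and 1.57, 5.26 and 1.72 CPM in liver Treg control libraries. It had 15.9, 10.8, 11.2, 6.03 and 6.19 CPM in liver Tconv CCl4 libraries, and 17.8, 5.76 and 9.37 CPM in liver Tconv control libraries. In liver Treg, 4 of the 5 CCl4 libraries lay below all controls, and the liver Tconv groups overlapped. Fga had 0.0532, 0, 12.1, 0.523 and 0.672 CPM in liver Treg CCl4 libraries, and 5.92, 1.54 and 1.75 CPM in liver Treg control libraries. It had 17.4, 11.9, 7.72, 11.7 and 6.26 CPM in liver Tconv CCl4 libraries, and 20.2, 7.34 and 5.54 CPM in liver Tconv control libraries. The pattern was that of Fgg, with library 3 of liver Treg CCl4 alone above the controls.

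Of the acute phase proteins, Hp, the hemoglobin carrier haptoglobin, had 0.506, 13.4, 16.6, 0.220 and 1.90 CPM in liver Treg CCl4 libraries, and 5.75, 4.10 and 2.66 CPM in liver Treg control libraries. It had 19.6, 27.02, 13.3, 14.6 and 9.15 CPM in liver Tconv CCl4 libraries, and 20.1, 9.09 and 15.0 CPM in liver Tconv control libraries. The CPM overlapped in both, while the ratio to Alb was 0.220 to 0.292 in liver Tconv CCl4 and 0.299 to 0.499 in liver Tconv control libraries. Hpx, the heme carrier hemopexin, had 0.133, 0.798, 9.62, 0.0275 and 0.0395 CPM in liver Treg CCl4 libraries, and 4.45, 5.59 and 3.10 CPM in liver Treg control libraries. It had 12.2, 11.3, 15.99, 12.2 and 9.46 CPM in liver Tconv CCl4 libraries, and 9.62, 6.69 and 9.79 CPM in liver Tconv control libraries. Its ratio to Alb did not overlap in liver Treg, at 0.00719 to 0.0957 in CCl4 and 0.162 to 0.399 in control libraries, and overlapped in liver Tconv.

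Of the P450 enzymes, Cyp3a11 was lower relative to Alb in CCl4 libraries of both populations, and Cyp2e1 overlapped. Cyp3a11 had 0.0532, 0.0591, 1.28, 0.0550 and 0.158 CPM in liver Treg CCl4 libraries, and 2.30, 2.15 and 1.35 CPM in liver Treg control libraries. It had 4.44, 0.465, 3.27, 11.04 and 6.93 CPM in liver Tconv CCl4 libraries, and 27.9, 9.31 and 15.5 CPM in liver Tconv control libraries. The groups did not overlap in liver Treg and overlapped in liver Tconv; as a ratio to Alb they did not overlap in either. The log2 difference was -2.59 ± 0.81 (SE) in liver Treg, -4.60 without CCl4 library 3, and -1.74 ± 0.73 in liver Tconv. Cyp2e1, the enzyme that activates CCl4, had 0.666, 0.916, 4.75, 0.743 and 0.790 CPM in liver Treg CCl4 libraries, and 4.76, 0.506 and 2.49 CPM in liver Treg control libraries. It had 3.15, 34.8, 0.223, 4.37 and 1.62 CPM in liver Tconv CCl4 libraries, and 34.3, 8.40 and 23.3 CPM in liver Tconv control libraries. In liver Tconv 4 of the 5 CCl4 libraries lay below all controls and library 2 lay above them; in liver Treg the groups overlapped. Its ratio to Alb also overlapped in liver Tconv, at 0.00455 to 0.283 in CCl4 and 0.276 to 0.778 in control libraries.

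Over all 39 members other than Alb, the ratio to Alb was lower in every CCl4 library than in every control library for 8 members in liver Treg and for 17 in liver Tconv, against 0.286% and 3.81% of all genes tested, and for none was it higher in every CCl4 library, against 0.239% and 0.356%. A gene of even CPM has a ratio that only mirrors Alb, which overlapped between the groups. The shares over all genes are therefore no measure of an excess among the members. The 17 comprised 6 of 7 Mup genes, 5 of 8 protease inhibitors, 2 of 5 acute phase proteins, and 1 each of carriers, apolipoproteins, enzymes and the fibrinogen and vitronectin group. The 8 comprised 5 Mup genes with Serpina3k, Hpx and Cyp3a11. The median log2 ratio of summed values was -3.78 for the Mup genes in liver Tconv, against -2.06 for enzymes, -1.28 for protease inhibitors, -0.97 for apolipoproteins, -0.86 for fibrinogen and vitronectin, -0.78 for acute phase proteins and -0.66 for the other carriers. In liver Treg, library 3 held 3303 of the 3996 Alb counts of the CCl4 group, so ratios of summed values there are close to those of that library. They had a median of -4.16 for the Mup genes, -2.34 for acute phase proteins, -1.57 for apolipoproteins, -1.45 for enzymes, -0.64 for protease inhibitors, -0.58 for fibrinogen and vitronectin and -0.22 for the other carriers. Without library 3 the medians were -2.83 for the Mup genes, -1.03 for acute phase proteins, -1.34 for apolipoproteins, -0.011 for enzymes, -0.41 for protease inhibitors, -1.61 for fibrinogen and vitronectin and -0.65 for the other carriers. Library 2 held 423 of the 693 Alb counts then left, so these values again lean on 1 library. In the remaining CCl4 libraries Saa2 had 0 counts, Apob 3 and Saa1 7. The enzyme median includes Ass1, which was not particular to liver libraries. Without library 3 Ass1 stood at 0.96, Hpd at 0.10, Cyp2e1 at -0.011, Cps1 at -1.66 and Cyp3a11 at -2.85. The Mup genes were lowest with and without library 3, and the order of the other roles changed. For Apoa1 the ratio of sums gave -0.0039 and that of the medians of libraries -2.08. The same 8 members were free of overlap without library 3. All of these ratios share the Alb count of a library and are not independent of each other. In liver Tconv the carriers, Alb among them, took 24.9% to 33.6% of the 39 genes other than Ass1 in CCl4 and 11.7% to 15.2% in control libraries. Protease inhibitors took 21.7% to 25.4% and 13.99% to 19.8%. Such shares also rise where the Mup share falls. Less of a member and more Alb were not told apart, so lower ratios are not read as less of a member.

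**Figure D4:**
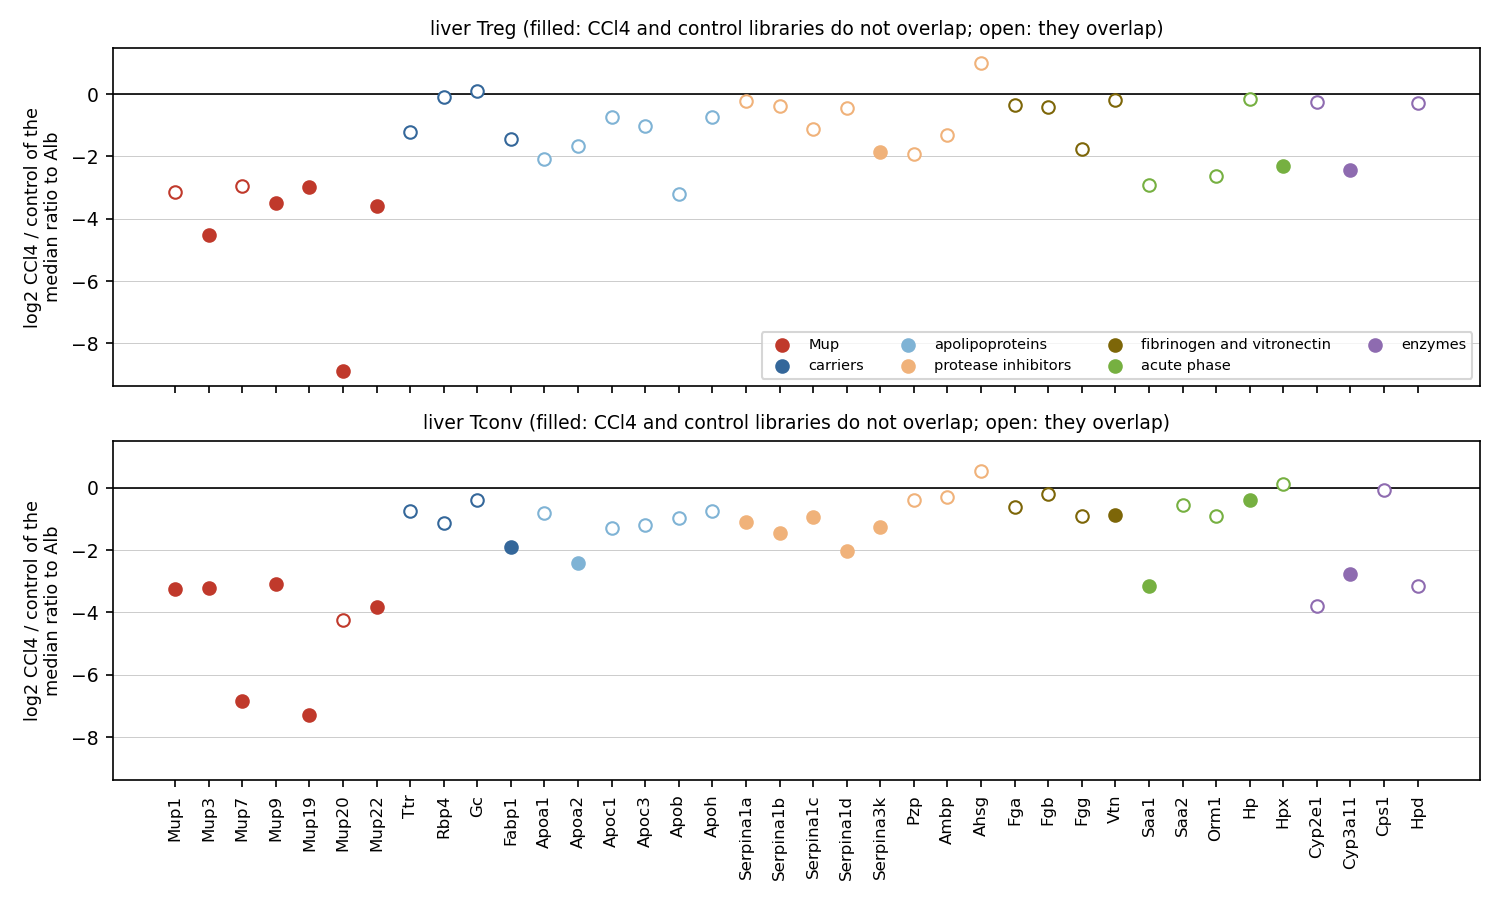
Log2 of the median ratio to Alb in CCl4 over that in control libraries, for 38 members (all but Alb and Ass1) in liver Treg (above) and liver Tconv (below), coloured by role. Filled points mark members whose CCl4 and control libraries do not overlap, and all of these lie below 0. Saa2 and Cps1 have no point in liver Treg because their CCl4 median is 0.

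Markers of other liver cells differed between groups in the same libraries. The 8 stellate cell and fibroblast genes summed to 22.2 to 69.9 CPM in liver Tconv CCl4 libraries, and to 2.21 to 12.4 CPM in liver Tconv control libraries, with none at 0 throughout. Col1a1, Col1a2, Col3a1 and Dcn each parted without overlap in liver Tconv, Dcn at 11.7 to 20.5 CPM in CCl4 and 1.37 to 5.40 CPM in control libraries. Lrat, Reln, Des and Pdgfrb overlapped, with 1.30 CPM at most in CCl4 and 2.32 CPM at most in control libraries. In liver Treg the 8 summed to 7.08 to 59.7 CPM in CCl4 and to 5.37 to 11.5 CPM in control libraries. The 8 liver endothelium genes summed to 111 to 132 CPM in liver Treg CCl4 and to 201 to 224 CPM in liver Treg control libraries. That gap was Pecam1's, with 95.2 to 122 CPM in CCl4 and 189.6 to 210.0 CPM in control libraries; in spleen libraries Pecam1 reached 144 to 298 CPM. The sum of the other 7 overlapped, at 8.49 to 21.1 CPM in CCl4 and 4.68 to 27.1 CPM in control libraries. Some of these 7 parted without overlap, in opposite directions. Stab2 stood at 0 to 0.148 CPM in liver Treg CCl4 and 0.471 to 5.69 CPM in control libraries. Clec4g stood at 0 to 0.514 and 1.48 to 7.415 CPM there. Oit3 was higher in CCl4, at 6.44 to 10.1 CPM against 0.370 to 5.59 CPM in control libraries. The rest of the 7 overlapped singly. In liver Tconv the sum of all 8 overlapped as well. The 6 cholangiocyte genes summed to 14.5 to 70.5 CPM in liver Tconv CCl4 and to 8.32 to 14.8 CPM in liver Tconv control libraries. There 4 of the 5 CCl4 libraries lay above all controls. Spp1 held 8.075 to 62.3 CPM of that in CCl4 and 2.195 to 9.80 CPM in control libraries. It also reached 35.8 CPM in spleen Tconv CCl4 libraries. Without Epcam and Spp1 the sum of the other 4 overlapped in liver Tconv, at 2.225 to 7.84 and 1.83 to 3.86 CPM. In liver Treg the 6 summed to 56.7 to 167 CPM in CCl4 and to 28.2 to 69.4 CPM in control libraries. Epcam held 50.1 to 63.9 CPM of that in liver Treg CCl4 and 19.0 to 23.7 CPM in control libraries, and stood at 26.8 to 54.8 CPM in spleen Treg. Of this list Cftr was under 1 count in every library of the other 3 liver groups, but not in liver Treg CCl4. The 12 Kupffer and myeloid genes overlapped between groups in both liver populations, at 4.23 to 35.7 CPM in liver Treg CCl4 and 11.6 to 31.1 CPM in liver Tconv CCl4 libraries. The 5 erythroid and 4 B cell genes also overlapped in both. The 11 pancreatic acinar genes summed to 3.40 to 6.65 CPM in liver Tconv CCl4 and to 7.23 to 84.8 CPM in liver Tconv control libraries. Their part in the hepatocyte results was not tested.

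Ass1 differed between CCl4 and control libraries in liver Treg and overlapped in the other populations. In liver Treg it averaged 116.5 ± 11.4 CPM in CCl4 libraries (SD, n = 5) and 199 ± 25.1 CPM in control libraries (SD, n = 3). The values were 125, 128, 110.5, 99.97 and 119 CPM in CCl4, and 181, 228 and 188 CPM in control libraries, with no overlap. In liver Tconv they overlapped, at 76.4 to 94.2 CPM in CCl4 and 88.5 to 104 CPM in control libraries. The log2 difference was -0.77 ± 0.10 (SE) in liver Treg, -0.15 ± 0.10 in liver Tconv, 0.16 ± 0.10 in spleen Treg and 0.01 ± 0.10 in spleen Tconv. Liver Treg CCl4 library 3, with the most hepatocyte RNA of its group, was not high in Ass1.

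The effects of CCl4 on Ass1 differed by -0.63 ± 0.14 between liver Treg and liver Tconv and by -0.93 ± 0.14 between liver Treg and spleen Treg, which share the liver Treg libraries. It was the 1 member called in each of these differences, against 3.64% and 5.48% of all genes tested. Without CCl4 library 3 of liver Treg, 8 and 6 members were called, all lower, against 1.72% and 3.05% of all genes called lower. Between liver Tconv and spleen Tconv edgeR called 0 members, against 0.0874% of all genes tested, with 1 at an unadjusted p under 0.05; DESeq2 and limma-voom also called 0. In order of mean CPM, liver Treg control (199) was followed by spleen Treg CCl4 (142), spleen Treg control (127), liver Treg CCl4 (117), spleen Tconv CCl4 (109), spleen Tconv control (108), liver Tconv control (94.9) and liver Tconv CCl4 (85.7). Only liver Treg control lay apart from its neighbour; the other neighbours overlapped. Of the runs of 31 bases in Ass1 transcripts 56.9% were found in no other gene, and reads of the rest can be divided among related sequences.

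In spleen, CCl4 and control libraries were not told apart in any member by edgeR. It called 0 of 40 members in spleen Treg, against 1.18% of all genes tested, and 0 in spleen Tconv, against 1.07%, with 2 members at an unadjusted p under 0.05 in each. DESeq2 called 1 in spleen Treg, Hp, and 0 in spleen Tconv, and limma-voom 0 in both. The Mup sum had log2 differences of -0.98 ± 0.89 (SE, adjusted p = 0.692) in spleen Treg and -1.04 ± 0.94 (adjusted p = 0.676) in spleen Tconv.

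Haptoglobin was the member whose spleen values stood out. It had 1.28, 2.38, 2.30, 2.30 and 0.988 CPM in spleen Treg CCl4 libraries, and 0.357, 0.368 and 0.0243 CPM in spleen Treg control libraries. These groups did not overlap, and its log2 difference was 2.86 ± 0.96 (SE, adjusted p = 0.159 by edgeR). The 12 Kupffer and myeloid genes summed to 58.4 to 117 CPM in the same CCl4 and to 15.6 to 20.9 CPM in the same control libraries, with Vsig4 under 1 count in all of them, and their part in the Hp values was not tested. Averaged over treatments, edgeR called 3 members higher in spleen Treg than in spleen Tconv, against 19.4% of all genes tested. In spleen Tconv, Hp stood at 0 to 0.0747 CPM in CCl4 and at 0.0898 to 0.532 CPM in control libraries. The 3 were Ass1 (0.31 ± 0.07, adjusted p = 0.000509), Hp (2.50 ± 0.79, adjusted p = 0.0118) and Hpd, a tyrosine-degrading enzyme (2.95 ± 0.97, adjusted p = 0.0169). Only Ass1 remained without spleen control libraries 2 and 3 of both populations.

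**Figure D5:**
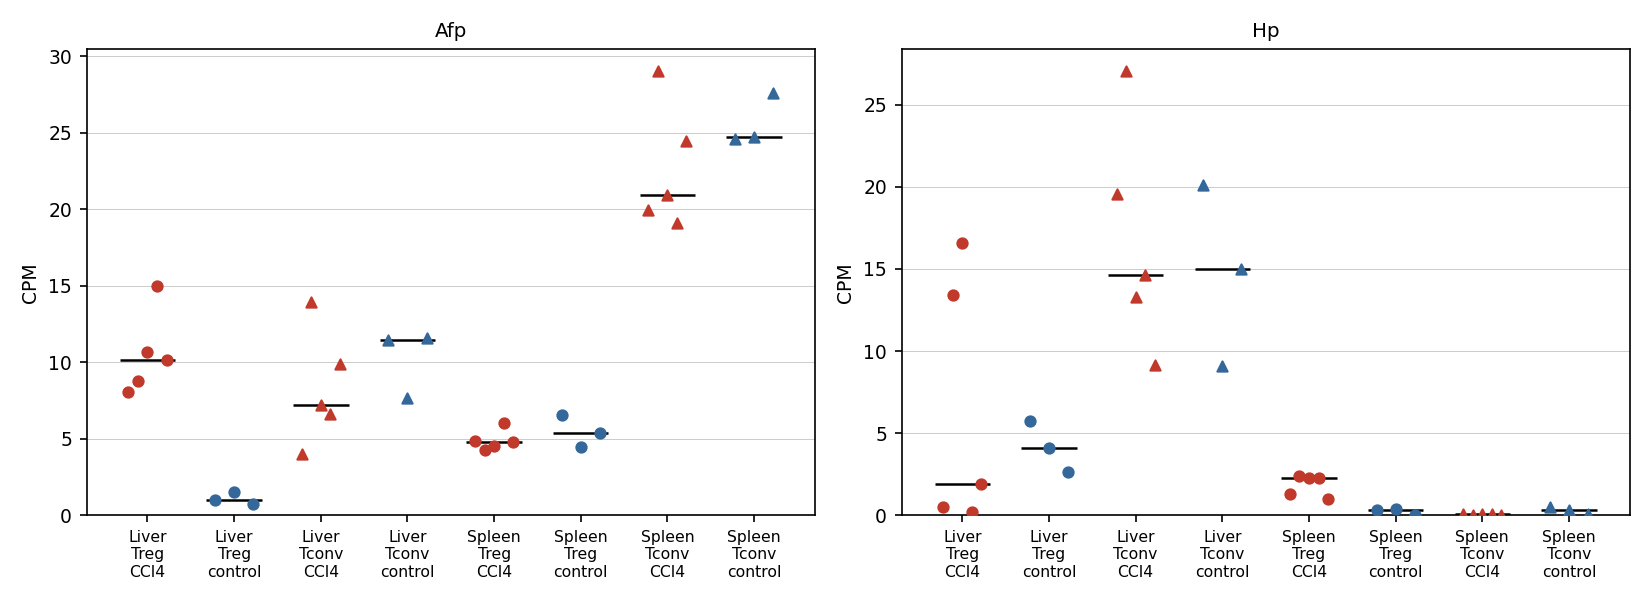
CPM of Afp (left) and Hp (right) in each library of the 8 groups, on linear axes, CCl4 in red, control in blue, Treg as circles, Tconv as triangles, with the group median as a line. Afp is 8.07 CPM or above in liver Treg CCl4 and 1.54 CPM or below in liver Treg control libraries, and Hp in spleen Treg CCl4 libraries lies above all spleen Treg control libraries.

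Other hepatocyte genes were read from a list of 65, of which 64 were in the tables and 60 passed the filter on low counts. In liver Treg edgeR called 3 of the 60 higher in CCl4 and 3 lower, against 7.55% and 7.34% of all genes tested, and in liver Tconv 0, with 11 at an unadjusted p under 0.05; there limma-voom called 8 and DESeq2 0. The list's median log2 difference was -0.85 in liver Treg and -0.40 in liver Tconv. Afp, the fetal relative of albumin whose gene begins 14135 bases beyond the end of Alb on chromosome 5, had 8.07, 8.78, 10.7, 15.0 and 10.2 CPM in liver Treg CCl4 libraries, and 1.012, 1.54 and 0.741 CPM in liver Treg control libraries. The groups did not overlap, and its log2 difference was 3.24 ± 0.32 (SE, adjusted p = 2.15e-08). Afp stood at 19.1 to 29.0 CPM in spleen Tconv CCl4 and at 24.6 to 27.6 CPM in spleen Tconv control libraries, where the members other than Ass1 were near 0.

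Fah, the last enzyme of tyrosine breakdown, was higher in liver Treg, at 18.9 to 28.7 CPM in CCl4 and 13.0 to 15.0 CPM in control libraries (0.80 ± 0.20, adjusted p = 0.00523). C3, the central complement protein, averaged 49.9 CPM in liver Treg CCl4 and 6.24 CPM in liver Treg control libraries (2.99 ± 1.03, adjusted p = 0.0491). Its groups overlapped: CCl4 libraries 2 and 5 held 149 and 88.3 CPM, and the same libraries held 59.7 and 47.5 CPM of stellate cell and fibroblast genes and 167 and 80.1 CPM of cholangiocyte genes. Of these cholangiocyte sums, Epcam held 63.9 and 53.8 CPM and Spp1 86.5 and 18.1 CPM. The part of either list in C3 was not tested. Cyp2d9, a male-biased P450, was at 0 to 0.0609 CPM in liver Treg CCl4 and at 0.121 to 0.505 CPM in liver Treg control libraries (adjusted p = 0.0208). Sult1d1, a sulfotransferase, was at 0 in all 5 CCl4 libraries and at 0.0337 to 0.0965 CPM in control libraries (adjusted p = 0.0451). These are 7 counts in all, and 2 of the 3 control libraries lay under the 0.0733 to 0.106 CPM that 3 counts make there. Ugt2b1, a glucuronosyltransferase, was at 0 in all 5 CCl4 libraries and at 0.202 to 0.482 CPM in control libraries (adjusted p = 0.0353). The count of 6 became 3 without control library 1, 2 without control library 3, 12 without CCl4 library 3 and 3 without CCl4 library 5. Only Afp and Fah were also called without each single liver Treg library in turn and with the liver Treg libraries compared alone. In spleen Treg, Lrg1, a plasma glycoprotein also made by myeloid cells, was at 0.223 to 2.12 CPM in CCl4 libraries and at 0 in all 3 control libraries (adjusted p = 0.0248), beside the myeloid genes given above, and was not called without control library 2 or without control library 3.

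Per length, the most abundant of that list in the liver libraries were Adh1, alcohol dehydrogenase (17.1 TPM), Fah (14.5 TPM), C3 (13.2 TPM), Serpinc1, antithrombin (7.87 TPM) and Afp (6.28 TPM). Adh1, Fah, Serpinc1 and Afp were also found in spleen. Adh1 averaged 2.13 CPM in spleen Treg and 24.5 CPM in spleen Tconv libraries, Fah 14.3 CPM in spleen Treg and 2.65 CPM in spleen Tconv libraries, and Serpinc1 10.2 CPM in spleen Treg and 3.47 CPM in spleen Tconv libraries. Between Treg and Tconv, edgeR called 1 of the 60 higher and 28 lower in liver, against 24.7% and 27.1% of all genes tested. In spleen it called 3 higher and 4 lower, against 19.4% and 20.3%. Between liver and spleen it called 50 higher and 2 lower in Treg, against 30.1% and 30.5%, and 56 higher and 1 lower in Tconv, against 27.2% and 27.7%.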

How the data were processed

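RNA of sorted cells was measured in 32 libraries by full-length cDNA amplification and Nextera tagging, per the labels' protocols. Per the submitters' processing notes, bcl2fastq 2.19 and kallisto 0.44.0 were used, with GRCm38.p6 as the genome build and an unversioned DESeq2. Neither annotation release nor strand setting is given in the sources used here. Per the file headers, the deposited values are an estimated count and a TPM for every transcript, and the TPM was used only for levels per length.

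Estimated counts were summed to genes by transcript name in GENCODE M21. This left 1761 of 118489 transcripts unmatched, holding 0.684% to 0.823% of counts, which were left out. Rounded sums entered edgeR 4.0.16 (limma 3.58.1, R 4.3.3). After filterByExpr 17159 genes were tested in 1 quasi-likelihood fit of the 8 groups with TMM factors (24 residual degrees of freedom). SE is the absolute log2 difference divided by the square root of F, and the prior count is 0.125. P-values were adjusted by Benjamini and Hochberg across the tested genes and called under 0.05. Tissue and cell type contrasts were averaged over treatments. Steps were tested on simulated data. Python 3.11.15, Biopython 1.88 and matplotlib 3.10.9 were used for sequences and figures.

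The members and lists were chosen with earlier results of these data known. Named with values are Alb, the Mup genes, the 2 members of highest TPM in each role, every member called in a CCl4 comparison or a difference of effects, and the 5 called members of largest difference in each direction elsewhere. Of the other hepatocyte genes, those called in a CCl4 comparison and the 5 of highest TPM are named; Saa2 was named after its values were seen. Counts of 0 limit a value only to 3 counts, and counting error does not cover the spread between samples. Alternatives were DESeq2 size factors, no filter, DESeq2 1.42.0, limma-voom, a block by sample number, Mup copies summed, the libraries compared alone, other definitions of the sums and leaving out each library. Ratios to Alb without liver Treg CCl4 library 3 or from medians, and sums without Ass1, were chosen after the data were seen. So were marker sums without Pecam1 or without Epcam and Spp1.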

Additional observations from a re-analysis of the deposited data

Results flagged for a closer look

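Liver Treg CCl4 library 3 was far above the other 4 libraries of its group in 16 measures of hepatocyte transcripts, all in CPM. The sum of the 39 genes other than Ass1 was 458 in that library and 14.3 to 47.5 in the others, and the Mup sum 11.96 against 1.15 to 2.72. Alb stood at 100.5 (others 1.07 to 12.5), Fabp1 at 8.10 (0.118 to 2.37), Apoa1 at 60.2 (0.237 to 1.82) and Apoa2 at 7.31 (0.553 to 1.012). Ahsg stood at 36.3 (0.503 to 1.40), Serpina3k at 22.6 (0.0275 to 0.798), Fgg at 14.2 (0 to 0.220), Fga at 12.1 (0 to 0.672) and Hpx at 9.62 (0.0275 to 0.798). Cyp2e1 stood at 4.75 (0.666 to 0.916), Cyp3a11 at 1.28 (0.0532 to 0.158), Mup1 at 4.93 (0 to 1.05), Mup9 at 1.16 (0.0790 to 0.240) and Mup22 at 2.89 (0.0550 to 0.591). In liver Tconv CCl4, Mup20 stood at 12.6 in library 4 (0.281 to 0.636 in the others), and library 2 held 37.8 of Serpina3k (13.4 to 19.0) and 34.8 of Cyp2e1 (0.223 to 4.37). These are 19 of 50 groups looked at over 23 measures. Chance sets apart about 1 group in 20 only where values are spread normally, which CPM of carried-over RNA need not be. Control groups, with 3 libraries each, were not looked at. The measures share libraries and are not independent.

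The effect of CCl4 differed between populations for 3 genes by the edgeR test of the difference itself. For Ass1 the effect in liver Treg minus that in liver Tconv was -0.63 (log2), and minus that in spleen Treg -0.93. For Afp the differences were 3.54 ± 0.40 (SE, adjusted p = 1.71e-06) and 3.40 ± 0.40 (adjusted p = 6.36e-06). For Lrg1 the effect in liver Treg minus that in spleen Treg was -7.74 (adjusted p = 0.0266), a fitted value that depends on the prior count because the spleen Treg controls are at 0.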

How the results depend on the processing

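Of the values of group comparisons under other settings, 419 stayed within the limits of the reported value and 48 did not; of those of single genes and role ratios 264 stayed, 38 missed the threshold, 3 passed it, 4 changed sign and 2 moved. Summing the Mup copies turns 7 features into 1, which by itself lowers the number of members called. The cause of the other changes was not tested. The 9 members called in liver Treg became 21 with limma-voom, 3 with the Mup copies summed, 20 without liver Treg control library 1 and CCl4 library 3 (chosen after seeing the data), and 8 to 29 with 1 library left out. The 4 called in liver Tconv became 2 with DESeq2, 1 with the Mup copies summed, 0 with the libraries compared alone and 0 to 4 with 1 left out. In spleen Treg DESeq2 called 1 in place of 0. Between liver Treg and Tconv 31 became 18 with DESeq2 and 21 to 37 with 1 left out, and between spleen Treg and Tconv 3 became 1 with limma-voom and 1 without spleen control libraries 2 and 3 (chosen after seeing the data). For the effect in liver Treg minus liver Tconv, 1 became 3 with limma-voom, 4 without the 2 liver Treg libraries and 1 to 8 with 1 left out; minus spleen Treg, 1 became 2 with DESeq2, 4 without the 2 libraries and 1 to 6. Of other hepatocyte genes, 6 called in liver Treg became 17 with limma-voom, 3 compared alone and 2 to 12 with 1 left out; 0 in liver Tconv became 8 with limma-voom; 1 in spleen Treg became 0 with limma-voom, 2 with DESeq2, 0 without the 4 spleen controls and 0 to 1 with 1 left out. Between liver Treg and Tconv 29 became 45 with limma-voom, and without the 4 spleen controls 52 between liver and spleen Treg became 33 and 7 between spleen Treg and Tconv became 4. The log2 ratio of summed members in spleen Tconv was -0.45 without Ass1 (chosen after seeing the data), against -0.0021; in liver Treg, -0.65 became -2.61 without Ass1 and CCl4 library 3 and -2.48 from medians without Ass1 (both chosen after seeing the data). The Mup share difference in liver Treg, -11.6 percentage points, was -18.7 from TPM, -14.1 with all Mup genes, -42.3 of Mup plus Alb, -22.3 without Ass1 (the last chosen after seeing the data) and -13.5 to -9.66 with 1 left out; in liver Tconv, -26.6 became -32.4 from TPM, -54.2 of Mup plus Alb and -29.2 to -23.9. Alb in liver Treg changed sign with limma-voom (-1.30), without the 2 libraries (-1.26) and with 1 left out (-1.73 to 0.93), and Mup20 in liver Tconv ranged from -4.09 to 0.18. Sample numbers were not taken to pair the libraries. Same-numbered CCl4 and control libraries of a population correlated in their deviations from the group means by -0.258 to 0.136. Within a treatment the correlation was 0.0992 to 0.405 in CCl4 and 0.261 to 0.529 in control between spleen Treg and spleen Tconv, -0.0796 to 0.161 in CCl4 and 0.113 to 0.177 in control between liver Treg and spleen Treg, and 0.0661 to 0.238 in CCl4 and 0.0531 to 0.306 in control between liver Treg and liver Tconv. Every control library correlated best with its own number in every pair of populations. Of CCl4 libraries, 5 of 5 did so between liver Treg and liver Tconv and 4 of 5 between spleen Treg and spleen Tconv. It was 2 of 5 between liver Treg and spleen Treg and 3 of 5 between liver Tconv and spleen Tconv. This is a hint from the data and not from the design, and the reported fit did not pair libraries. The replicate block also ties CCl4 to control libraries of the same number, and a block within each treatment was not run. It therefore cannot show what pairing within a treatment would give. With this block 1 member, Mup7, and 1 other hepatocyte gene were called in liver Tconv, in place of 4 and 0. The other counts stayed within 1.5 times. Near 0 counts, as in spleen, depth limits what can be detected.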
